A study of Mus musculus with 6 samples.

Results

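The genes examined here encode the MCM2-7 helicase and a set of proteins that work with it when DNA is copied. The 10 members are *Mcm2*, *Mcm3*, *Mcm4*, *Mcm5*, *Mcm6*, *Mcm7*, *Pcna*, *Rpa1*, *Lig1* and *Rrm1*. They were taken by gene symbol from a table of 16448 genes, and all 10 were found, each in a single row. Adult CMs (cardiomyocytes) were compared between 3 CtrlCre and 3 Cpt1bcKO libraries of C57BL/6 mice aged 8 to 12 weeks. Cpt1bcKO mice carried *αMHC-Cre* on 1 allele together with *Cpt1b* fl/fl, so that *Cpt1b*, the muscle isoform of the enzyme that admits long-chain fatty acids to mitochondria, was deleted in CMs from embryonic stages. CtrlCre mice carried the same *αMHC-Cre* allele with *Cpt1b* +/+, so both groups express Cre in CMs. CMs came from enzyme-digested ventricles, separated from other cells by a slow spin and not by sorting. The labels number the libraries without tying each to a separate mouse, so the *P* values measure the spread between these libraries.

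Before a cell copies its DNA, the origin recognition complex with CDC6 and CDT1 loads MCM2-7 onto origins as a ring made of all subunits in equal number. In S phase CDC45 and the GINS complex join the ring and switch it on, RPA coats the single strands that it exposes, PCNA clamps the polymerases to the template, and LIG1 seals the fragments of the lagging strand. Ribonucleotide reductase, whose large subunit is RRM1, supplies the deoxynucleotides. In dividing cells many of these genes are transcribed under the control of E2F factors. CMs of adult mice have mostly left the cell cycle.

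The table gives normalized counts, which are reads per gene divided by a size factor for each library and rounded. Expression of the helicase subunits and *Lig1* was low. In the CtrlCre libraries the mean normalized count was below 50 in all helicase subunits and lay between 9.67 (*Mcm5*) and 44.7 (*Mcm4*), against a median of 70.4 over the 11364 genes that reached a normalized count of 10 in 3 or more libraries. All 10 members met this filter, and 8 of them had at least 10 in all 6 libraries. *Mcm5* met it in 5 libraries and *Lig1* in 4. The CtrlCre mean was 11.7 in *Lig1* and 64.3 in *Pcna*, whereas those of *Rrm1* (86.0) and *Rpa1* (211) lay above the median of 70.4. From the spacing of low values, a single read was worth between 0.682 and 1.29 in the 4 libraries where it could be resolved, so that *Mcm5* rested on about 5 to 22 reads and *Mcm2* on about 41 to 114 reads in those libraries. Counting error alone then gives a standard error of the log2 fold change of at least 0.33 for *Mcm5* and *Lig1*, 0.16 for *Mcm2* and 0.078 for *Rpa1*, where the 2 unresolved libraries were taken as 1 read per unit.

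*Cpt1b*, the targeted gene, had 1861, 893 and 1443 normalized counts in CtrlCre replicates 1, 2 and 3 and 211, 353 and 285 in Cpt1bcKO replicates 1, 2 and 3, so its level went with the labels. Sums over genes outside the mitochondrial genome and rRNA lay between 3438589 and 3551692 in CtrlCre and between 3146414 and 3315777 in Cpt1bcKO libraries, without overlap. The mitochondrial rRNA gene *mt-Rnr2* took 61.8 to 64.6% of the sum in the CtrlCre libraries and Cpt1bcKO replicate 1, 72.6% in Cpt1bcKO replicate 2 and 80.8% in replicate 3. All 8 CM markers examined were expressed, with a sum of 504993 to 613757 in CtrlCre and 317925 to 552437 in Cpt1bcKO CMs, in which *Ttn* was the largest term. Their log2 fold changes were all below 0, with a median of −0.44, whereas 49.8% of all tested genes were above 0. In 4 of them the groups did not overlap, as in 9.6% of all tested genes in this direction. By unadjusted *P* value 2 were lower, *Tnni3* (log2 fold change −0.996, adjusted *P* = 0.136 in limma) and *Pln* (−0.85, adjusted *P* = 0.0678), and by adjusted *P* value 0. Over all tested genes these shares were 7.22% and 0.906%. The part of these differences in the results on the members was not tested. Cpt1bcKO replicate 2 stood apart in genes of mitosis. Their summed value over 9 genes was 272 in this library and 44 to 74 in the other 5, and each of the 9 genes was highest there.

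The upstream sequences of the helicase genes are shown for *Mcm2* and *Mcm5*, the members with the lowest *P* values, and for *Mcm3* and *Mcm6*, which overlapped between the groups. Windows reach from 250 bases before to 50 bases after the RefSeq start in GRCm38.p6 and are written 5′ to 3′ along the strand of the gene. Capitals mark the E2F words TTTCCCGC, TTTCGCGC, TTTGCCGC and TTTGGCGC on either strand, and overlapping words run together.
*Mcm2*, chr6:88898731-88899030, minus strand: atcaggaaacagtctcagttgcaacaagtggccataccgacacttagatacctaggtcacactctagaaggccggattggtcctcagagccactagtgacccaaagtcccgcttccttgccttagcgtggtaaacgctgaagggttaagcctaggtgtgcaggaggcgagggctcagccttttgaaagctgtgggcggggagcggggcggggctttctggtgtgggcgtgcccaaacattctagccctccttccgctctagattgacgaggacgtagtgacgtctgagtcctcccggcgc
*Mcm5*, chr8:75109259-75109558, plus strand: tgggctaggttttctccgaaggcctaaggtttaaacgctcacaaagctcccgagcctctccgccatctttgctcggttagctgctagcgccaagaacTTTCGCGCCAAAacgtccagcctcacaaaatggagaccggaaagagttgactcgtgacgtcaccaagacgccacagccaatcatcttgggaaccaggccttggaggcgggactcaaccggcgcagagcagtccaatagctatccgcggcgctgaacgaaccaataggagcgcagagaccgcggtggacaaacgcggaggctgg
*Mcm3*, chr1:20820263-20820562, minus strand: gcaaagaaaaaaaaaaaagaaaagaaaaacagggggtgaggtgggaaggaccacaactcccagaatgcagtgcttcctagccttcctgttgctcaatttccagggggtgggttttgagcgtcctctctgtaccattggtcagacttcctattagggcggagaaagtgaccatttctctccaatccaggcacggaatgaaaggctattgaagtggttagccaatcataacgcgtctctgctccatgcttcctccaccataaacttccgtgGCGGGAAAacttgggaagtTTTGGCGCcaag
*Mcm6*, chr1:128359656-128359955, minus strand: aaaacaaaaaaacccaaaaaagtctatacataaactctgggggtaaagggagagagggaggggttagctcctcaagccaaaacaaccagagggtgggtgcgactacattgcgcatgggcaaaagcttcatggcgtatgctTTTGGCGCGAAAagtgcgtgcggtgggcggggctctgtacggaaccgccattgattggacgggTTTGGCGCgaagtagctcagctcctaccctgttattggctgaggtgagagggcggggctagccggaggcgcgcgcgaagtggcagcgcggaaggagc

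The *Mcm2* window holds none of these words. In *Mcm5* a pair of overlapping words begins 153 and 149 bases before the start, in *Mcm6* such a pair begins 110 and 106 bases before it and another word 47 bases before it, and in *Mcm3* the words begin at bases 20 and 39 after it. Of 12 windows matched by symbol to 9 members (all but *Mcm4*), 5 hold an E2F word, and these belong to *Mcm3*, *Mcm5*, *Mcm6*, *Mcm7* and *Lig1*. Over all 32851 windows of the RefSeq table the share is 2.26%. The word CCAAT, on either strand, is in 9 of the 12 windows and in 37.4% of all windows. These are matches of letters and were not tested against expression.

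*Mcm2* (ENSMUSG00000002870, GRCm38 chromosome 6, minus strand, bases 88883474 to 88898780) had 41, 37 and 38 normalized counts in the CtrlCre and 78, 132 and 82 in the Cpt1bcKO libraries. The CtrlCre libraries lay close together, and the lowest Cpt1bcKO library was above all of them. Its log2 fold change on the log2(value + 1) scale was 1.27 (95% interval 0.72 to 1.82, standard error 0.25, adjusted *P* = 0.0340 in limma with Benjamini–Hochberg adjustment over 11364 genes). Among the 10 members it alone was called by the adjusted *P* value, in a data set where 1.57% of all tested genes were called in this way, 0.66% as higher. The log2 fold change was 1.03 without Cpt1bcKO replicate 2 (adjusted *P* = 0.178 in limma), 1.37 without Cpt1bcKO replicate 3 (adjusted *P* = 0.0578), 1.31 without CtrlCre replicate 1 (adjusted *P* = 0.0762), 1.24 without CtrlCre replicate 2 (adjusted *P* = 0.121) and 1.26 without CtrlCre replicate 3 (adjusted *P* = 0.116), so each of these fits lost the call, and it was kept without Cpt1bcKO replicate 1 (1.41, adjusted *P* = 0.0257). The call was also lost when 1 prior variance was used for all genes (adjusted *P* = 0.100 in limma).

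*Mcm5* (ENSMUSG00000005410, chromosome 8, plus strand, bases 75109569 to 75128439) had 12, 5 and 12 normalized counts in the CtrlCre and 15, 34 and 25 in the Cpt1bcKO libraries. The groups did not overlap, but the gap between the highest CtrlCre and the lowest Cpt1bcKO value was 3 normalized counts. MCM5 sits next to MCM2 in the ring, at the place where it opens. The log2 fold change was 1.28, almost the same as that of *Mcm2*, with a wider 95% interval of 0.25 to 2.32 and a standard error of 0.47. In limma its unadjusted *P* value was 0.0199 and the adjusted *P* value 0.247. *Mcm2* and *Mcm5* were thus the 2 of 10 members with an unadjusted *P* value below 0.05 and higher values, and also the 2 in which all Cpt1bcKO libraries were above all CtrlCre libraries. These calls were made for 6.66% and 9.13% of all tested genes. The unadjusted *P* value of *Mcm5* rose above 0.05 in 3 fits that left out a library, with an adjusted *P* value in limma of 0.653 without Cpt1bcKO replicate 2 (log2 fold change 1.02), 0.419 without Cpt1bcKO replicate 3 (1.24) and 0.467 without CtrlCre replicate 2 (0.91).

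**Figure D1:**
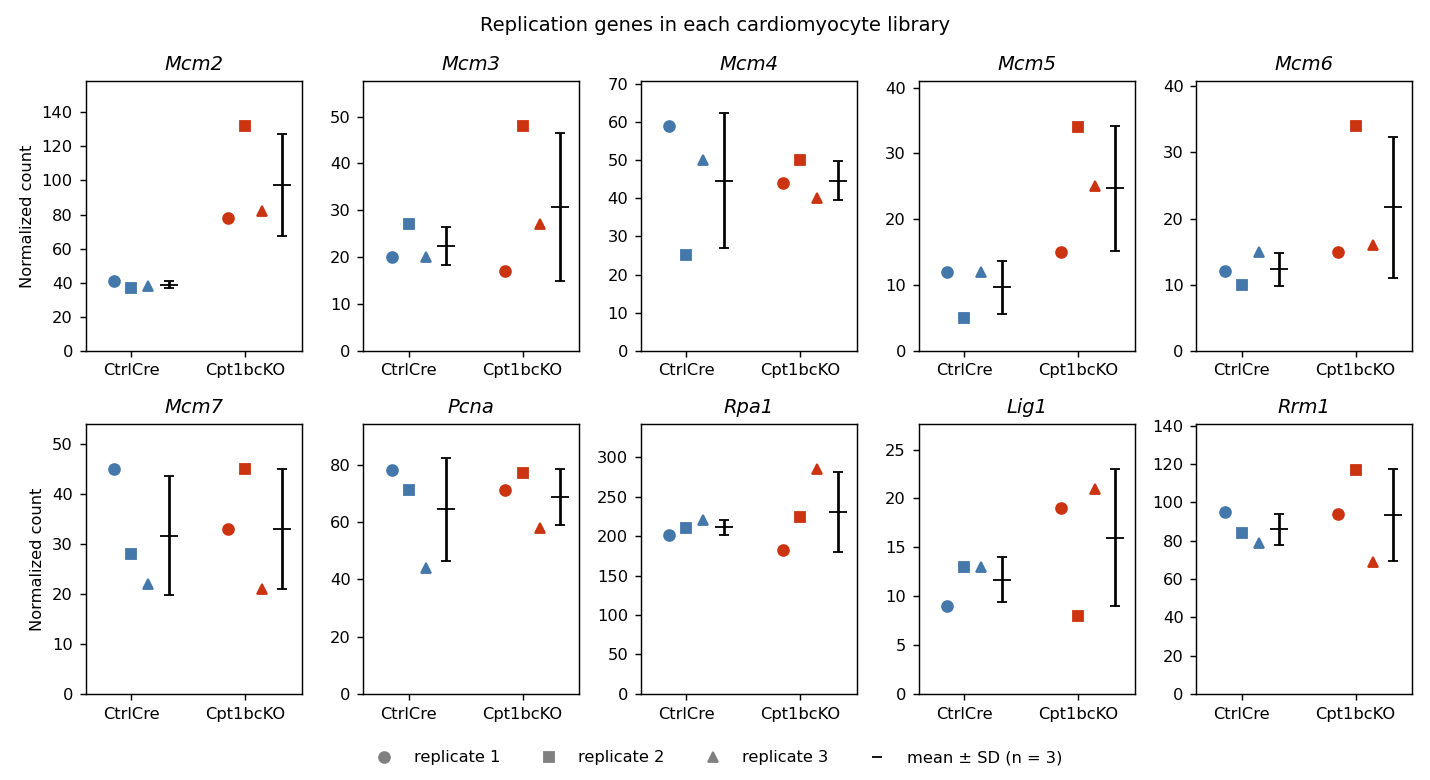
Normalized counts of the 10 genes (vertical axes, each from 0) in 3 CtrlCre (blue) and 3 Cpt1bcKO (red) libraries, with the marker shape giving the replicate number and the black bar the mean ± SD (n = 3). All Cpt1bcKO libraries are above all CtrlCre libraries in *Mcm2* and *Mcm5*, and Cpt1bcKO replicate 2 (square) is the highest library in 5 genes.

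The other helicase subunits overlapped between the groups. *Mcm6* (chromosome 1, bases 128331590 to 128359664) had 12, 10 and 15 normalized counts in CtrlCre and 15, 34 and 16 in Cpt1bcKO CMs. Only Cpt1bcKO replicate 2 lay well above the CtrlCre libraries, and the log2 fold change was 0.69 (95% interval −0.24 to 1.61, adjusted *P* = 0.504 in limma). *Mcm3* (chromosome 1, bases 20802968 to 20820312) had 20, 27 and 20 normalized counts in CtrlCre and 17, 48 and 27 in Cpt1bcKO CMs. Its highest value was again in Cpt1bcKO replicate 2, whereas replicate 1 of this group was the lowest library of all. The log2 fold change was 0.33 (−0.53 to 1.19, adjusted *P* = 0.756 in limma), and without Cpt1bcKO replicate 2 it was −0.042.

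*Mcm4* (chromosome 16, bases 15623897 to 15637400) had 59, 25 and 50 normalized counts in CtrlCre and 44, 50 and 40 in Cpt1bcKO CMs, with the same mean of 44.7 in both groups. MCM4, MCM6 and MCM7 form the part of the ring with the strongest helicase activity of its own. *Mcm7* (chromosome 5, minus strand, bases 138164583 to 138172422) had 45, 28 and 22 normalized counts in CtrlCre and 33, 45 and 21 in Cpt1bcKO CMs, so the lowest and one of the highest values were both in Cpt1bcKO libraries. The log2 fold changes were 0.081 for *Mcm4* (−0.64 to 0.80) and 0.055 for *Mcm7* (−0.76 to 0.87), with adjusted *P* values of 0.942 and 0.967 in limma. These intervals leave room for a change by more than 1.5-fold in either direction. *Mcm7* overlaps *Cops6* and *Ap4m1* on the opposite strand and holds the precursors of *Mir25*, *Mir93* and *Mir106b*. Reads that fell on more than 1 gene had been left out, so its counts are less certain. *Rpa1*, *Lig1* and *Rrm1* each overlap 1 other annotated gene, so the same can hold for them.

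The 4 fork and nucleotide genes all overlapped between the groups. *Rpa1*, the DNA-binding subunit of RPA (chromosome 11, bases 75298166 to 75348324), had 202, 211 and 221 normalized counts in CtrlCre and 183, 224 and 285 in Cpt1bcKO CMs. Cpt1bcKO libraries were both the lowest and the highest, and the log2 fold change was 0.10 (95% interval −0.31 to 0.52, adjusted *P* = 0.850 in limma). *Rrm1* (chromosome 7, bases 102441695 to 102469771) had 95, 84 and 79 in CtrlCre and 94, 117 and 69 in Cpt1bcKO CMs, and its log2 fold change was 0.089 (−0.42 to 0.60, adjusted *P* = 0.900 in limma). *Pcna* (chromosome 2, bases 132249162 to 132253314) had 78, 71 and 44 in CtrlCre and 71, 77 and 58 in Cpt1bcKO CMs, and 3 of these 6 values, from both groups, lay between 71 and 77. Its log2 fold change was 0.12 (−0.45 to 0.70, adjusted *P* = 0.873 in limma). For these 3 genes a rise as large as the 1.27 estimated for *Mcm2* is outside the interval. *Lig1* (chromosome 7, bases 13277313 to 13311425) had 9, 13 and 13 in CtrlCre and 19, 8 and 21 in Cpt1bcKO CMs, and its log2 fold change was 0.34 (−0.68 to 1.36, adjusted *P* = 0.792 in limma). Cpt1bcKO replicate 2, the library with the highest *Mcm2*, *Mcm3*, *Mcm5*, *Mcm6* and *Rrm1*, had the lowest *Lig1*.

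**Figure D2:**
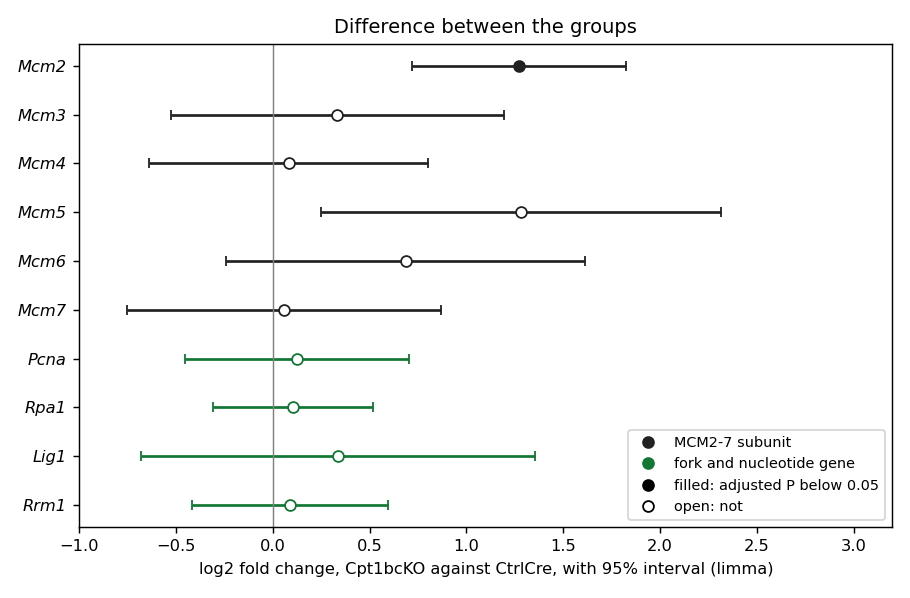
Log2 fold change of each gene between Cpt1bcKO and CtrlCre CMs (horizontal axis, log2(value + 1) scale) with its 95% interval from limma, black for MCM2-7 subunits and green for the fork and nucleotide genes. The filled point is *Mcm2*, with an adjusted *P* value of 0.0340, and the intervals of 8 genes include 0.

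All 10 members had a log2 fold change above 0, as did 49.8% of all tested genes. The median was 0.23 over the 10 members, 0.51 over the 6 helicase subunits and 0.11 over the 4 fork and nucleotide genes, beside −0.0013 over all tested genes. This uniform sign was lost in 4 of the 6 fits that left out a library. Without Cpt1bcKO replicate 2, 6 of 10 members were above 0 and the median was 0.075, whereas *Mcm2* was still 1.03. Above 0 were 9 members without Cpt1bcKO replicate 3, 8 without CtrlCre replicate 2, 8 without CtrlCre replicate 3 and all 10 in the remaining fits, and the median in these 5 fits lay between 0.21 and 0.32. *Mcm2*, *Mcm5*, *Mcm6* and *Lig1* were above 0 in all 6 such fits.

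**Figure D3:**
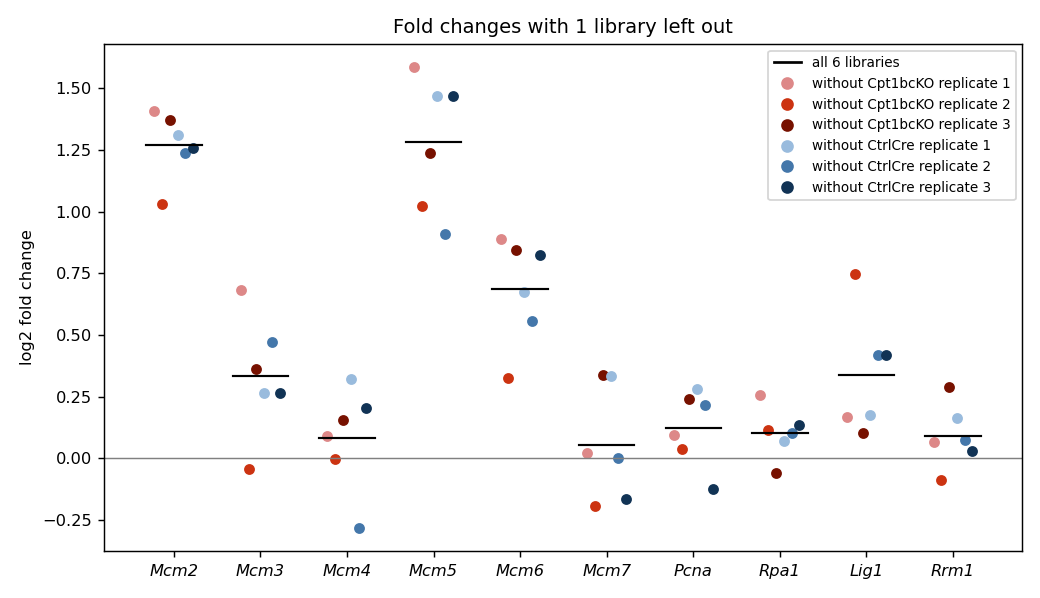
Log2 fold change of each gene (vertical axis) with all 6 libraries (black bars) and with 1 library left out at a time (points). *Mcm2* stays between 1.03 and 1.41, whereas 6 genes have a point below 0, 4 of them without Cpt1bcKO replicate 2.

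Within the helicase, the balance of the transcripts, examined after the data were seen, differed between the groups. Taken per kilobase of annotated exon, *Mcm2* made up 13.6, 18.2 and 15.2% of the summed MCM2-7 level in CtrlCre replicates 1, 2 and 3 and 26.4, 26.5 and 26.5% in Cpt1bcKO replicates 1, 2 and 3. With the longest transcript as the length, an alternative also added after the data were seen, the shares were 21.1, 27.4 and 24.1% in CtrlCre and 38.1, 38.3 and 38.7% in Cpt1bcKO CMs. The level of the share thus depends on the gene model. By either length the groups did not overlap and the Cpt1bcKO libraries were nearly equal, although the sum of the other subunits differed among them. *Mcm2* rested on about 114 and 63 reads in Cpt1bcKO replicates 1 and 3. Counting error at such numbers is wider than the spread of these shares, so their closeness is not read as a fixed balance. This sum, over *Mcm3* to *Mcm7*, was 148, 95 and 119 normalized counts in CtrlCre and 124, 211 and 129 in Cpt1bcKO CMs, so that Cpt1bcKO replicates 1 and 3 fell inside the CtrlCre range. The *Mcm2* value divided by the mean of the other 5 was 1.39, 1.95 and 1.60 in CtrlCre and 3.15, 3.13 and 3.18 in Cpt1bcKO CMs. A ratio within a library does not depend on its size factor. These ratios share *Mcm2* with the test above and are given as a description.

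**Figure D4:**
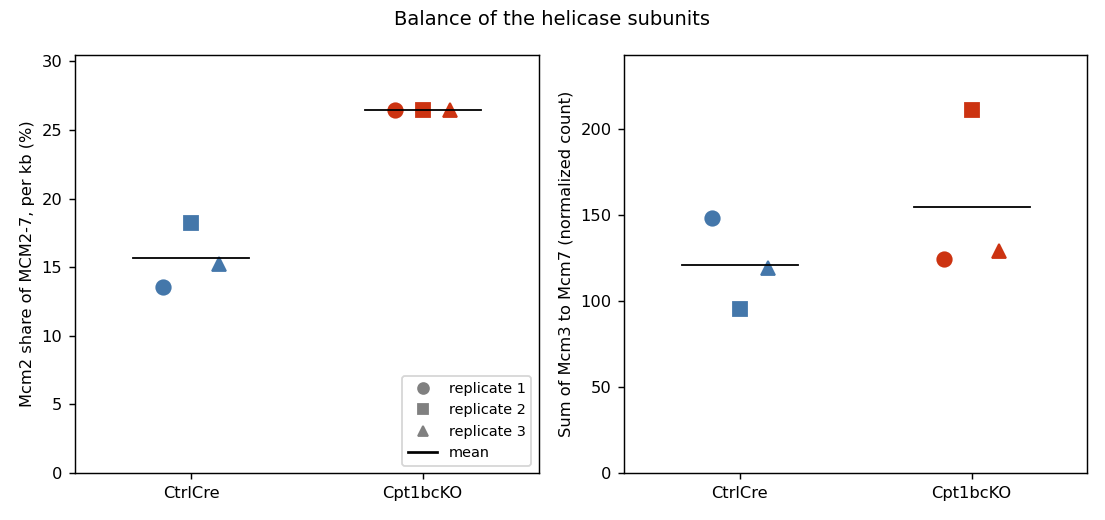
Left, share of *Mcm2* in the summed MCM2-7 level per kilobase of exon (percent) and right, sum of *Mcm3* to *Mcm7* (normalized counts), for each library, with the black line at the mean of 3 libraries. The share is 26.4 to 26.5% in Cpt1bcKO and 13.6 to 18.2% in CtrlCre CMs, whereas the sum overlaps between the groups.

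Per kilobase of exon, the members covered a wide range of levels in CtrlCre CMs. *Rpa1* was highest with 37.9 ± 1.70 normalized counts per kb (SD, *n* = 3), followed by *Pcna* with 26.8 ± 7.48 and *Mcm4* with 12.4 ± 4.91. *Rrm1* (7.81 ± 0.743), *Mcm7* (7.15 ± 2.70), *Mcm3* (5.95 ± 1.08) and *Mcm2* (5.56 ± 0.299) came next, and *Lig1* (2.73 ± 0.541), *Mcm6* (2.64 ± 0.539) and *Mcm5* (2.42 ± 1.01) were lowest. The CtrlCre ranges of neighbours in this order were apart between *Rpa1* and *Pcna*, between *Pcna* and *Mcm4* and between *Mcm2* and *Lig1*, and overlapped in all other places. In Cpt1bcKO CMs *Mcm2* reached 14.0 ± 4.33 per kb and had the highest mean of the helicase subunits, above *Mcm4* with 12.4 ± 1.40, although the ranges of the pair overlapped. The order depends on the gene model. With the longest transcript in place of all exons, *Pcna* (42.4) was above *Rpa1* (41.6), *Rrm1* (15.7) above *Mcm4* and *Mcm2* (11.1) above *Mcm7* (10.7) in CtrlCre CMs.

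**Figure D5:**
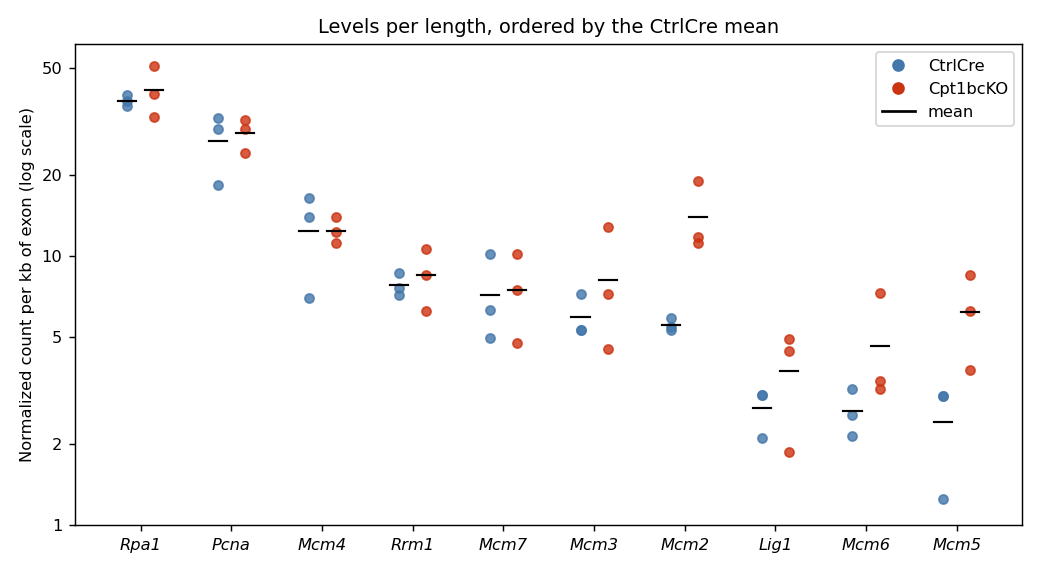
Normalized counts per kilobase of exon (vertical axis, log scale) in each CtrlCre (blue) and Cpt1bcKO (red) library, with genes ordered by their CtrlCre mean and black bars at the means. *Rpa1* and *Pcna* are highest, and *Mcm2* moves from a mean of 5.56 to 14.0.

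The remaining replication genes were described with lists by role, which together held 94 genes. Of these, 62 passed the filter on low values, 26 were listed but too low, and 6 were not among the 16448 genes. By unadjusted *P* value 3 of the 62 were higher and 4 lower in Cpt1bcKO CMs, beside 6.66% and 7.22% of all tested genes, and by adjusted *P* value 0 were called in limma. The median log2 fold change was 0.096. These counts, 3 and 4 of 62, lie close to the shares over all tested genes. Together 7 genes were called by unadjusted *P* value, 4 without Cpt1bcKO replicate 2 or without CtrlCre replicate 1 and 13 without Cpt1bcKO replicate 1. In all 6 fits that left out a library *Mcm8*, *Pole* and *Tfdp2* kept this call, whereas *E2f3* kept it in 5, *Top1* and *Rbl2* in 2 and *Orc3* in 0 in limma. Without Cpt1bcKO replicate 1, 2 genes were called by adjusted *P* value, *Pole* (0.0242 in limma) and *Tfdp2* (0.0386).

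Among 9 tested genes of origin licensing, 1 was higher and 1 lower by unadjusted *P* value, beside 6.66% and 7.22% of all tested genes. *Mcm8*, an MCM-like helicase gene with a role in recombination, had 19, 10 and 7 normalized counts in CtrlCre and 22, 30 and 38 in Cpt1bcKO CMs (log2 fold change 1.33, unadjusted *P* = 0.00986 and adjusted *P* = 0.184 in limma). *Orc3*, a subunit of the origin recognition complex and the highest gene of the list, had 293, 276 and 263 in CtrlCre and 229, 224 and 207 in Cpt1bcKO CMs (log2 fold change −0.33, unadjusted *P* = 0.0474 and adjusted *P* = 0.353 in limma). In both genes the groups did not overlap, as in 9.13% of all tested genes in the direction of *Mcm8* and 9.6% in that of *Orc3*. The other tested subunits *Orc2*, *Orc4*, *Orc5* and *Orc6* had log2 fold changes between −0.34 and −0.066. *Cdc6* and *Cdt1*, which load the helicase, had values of 0 to 5 and 0 to 8 and were too low to test.

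Of the genes that switch the helicase on, 5 were tested and 0 reached an unadjusted *P* value below 0.05 in limma. *Cdc45* had 14, 11 and 9 normalized counts in CtrlCre and 14, 16 and 8 in Cpt1bcKO CMs (log2 fold change 0.12). Of the GINS complex only *Gins4* passed the filter, with a log2 fold change of 0.11. *Gins2* was at 17 in Cpt1bcKO replicate 2 and at 2 to 8 elsewhere, *Gins1* had 2 to 15, and *Gins3* 0 to 7. *Mcm10* had 0 to 7. *Topbp1*, an activator of origin firing and the highest gene of this list, differed by 0.18 on the log2 scale (adjusted *P* = 0.760 in limma).

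Among 10 tested polymerase genes, *Pole* alone reached an unadjusted *P* value below 0.05. This gene, which encodes the catalytic subunit of the leading-strand polymerase, had 13, 16 and 7 normalized counts in CtrlCre and 20, 49 and 65 in Cpt1bcKO CMs, without overlap (log2 fold change 1.73, unadjusted *P* = 0.00413 and adjusted *P* = 0.123 in limma). Its highest library was Cpt1bcKO replicate 3 and not replicate 2. The accessory subunit *Pole3*, the highest gene of the list, differed by 0.27 on the log2 scale (adjusted *P* = 0.736 in limma). Among 17 tested fork factors, *Top1*, the topoisomerase that relieves the twist ahead of forks and of transcription, was the highest and had lower values in all Cpt1bcKO libraries (791, 683 and 761 against 537, 589 and 617, log2 fold change −0.36, unadjusted *P* = 0.0259 and adjusted *P* = 0.274 in limma). The small RPA subunits *Rpa2* and *Rpa3* had log2 fold changes of 0.031 (95% interval −0.56 to 0.62) and 1.01 (−0.21 to 2.23).

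Of 6 tested genes of nucleotide supply, 0 reached an unadjusted *P* value below 0.05 in limma. *Rrm2*, the S-phase partner of RRM1, had 8, 6 and 2 normalized counts in CtrlCre and 2, 36 and 3 in Cpt1bcKO CMs, so it was raised in a single library and failed the filter. *Rrm2b*, the partner used outside S phase, was the highest gene of the list, with 176 to 238 in CtrlCre and 135 to 183 in Cpt1bcKO CMs (log2 fold change −0.29, adjusted *P* = 0.540 in limma).

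Of 13 tested genes of the E2F and DREAM regulators, 1 was higher and 2 were lower by unadjusted *P* value, beside 6.66% and 7.22% of all tested genes. *E2f3*, an activating E2F, had 45, 45 and 38 normalized counts in CtrlCre and 83, 74 and 56 in Cpt1bcKO CMs (log2 fold change 0.71, unadjusted *P* = 0.0126 and adjusted *P* = 0.204 in limma). *Tfdp2*, a dimer partner of E2F factors and the highest gene of the list, had 776, 757 and 560 in CtrlCre and 467, 402 and 387 in Cpt1bcKO CMs (log2 fold change −0.72, unadjusted *P* = 0.00139 and adjusted *P* = 0.0665 in limma). *Rbl2*, the pocket protein p130 that holds E2F targets silent in resting cells, had 424, 238 and 321 in CtrlCre and 277, 143 and 175 in Cpt1bcKO CMs, with overlap (log2 fold change −0.74, unadjusted *P* = 0.0206 and adjusted *P* = 0.250 in limma). In the list of mitosis genes, 2 were tested. *Mki67* had 29, 36 and 43 normalized counts in CtrlCre and 28, 127 and 49 in Cpt1bcKO CMs (log2 fold change 0.64, adjusted *P* = 0.576 in limma), and *Top2a* had 9, 5 and 18 against 16, 76 and 13 (log2 fold change 1.34, adjusted *P* = 0.405 in limma). Cpt1bcKO replicates 1 and 3 were within or close to the CtrlCre range in both, unlike in *Mcm2*.

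Markers of other cells were examined because dividing cells of any type express the helicase, and in bulk samples fewer cells of a type and less RNA per cell cannot be told apart. Of 8 fibroblast markers 7 were tested, and all 7 were higher by unadjusted *P* value, beside 6.66% of all tested genes. *Col1a1* and *Lum* were higher also by adjusted *P* value (0.0143 for each in limma). *Col1a1*, a chain of the main fibrillar collagen, had 45, 69 and 64 normalized counts in CtrlCre and 162, 141 and 141 in Cpt1bcKO CMs, and *Lum*, a proteoglycan of the matrix, had 30, 26 and 23 against 81, 66 and 75. The median log2 fold change of the list was 1.12. With 1 library left out, 5 to 7 of these markers had an unadjusted *P* value below 0.05 in limma. The median then lay between 0.82, without CtrlCre replicate 1, and 1.37, without CtrlCre replicate 3. The summed value of the list was 498 to 785 in CtrlCre and 1108 to 1338 in Cpt1bcKO libraries, and the lowest single marker was *Tcf21* with 4 to 16. Fibroblast markers were thus higher in the same group as *Mcm2*, and their part in its difference was not tested. The fibroblast sums of CtrlCre replicates 1, 2 and 3 were 498, 785 and 772, beside *Mcm2* values of 41, 37 and 38. Those of Cpt1bcKO replicates 1, 2 and 3 were 1338, 1289 and 1108, beside *Mcm2* values of 78, 132 and 82. Neither the sums nor *Mcm2* overlapped between the groups. With 3 libraries a group, their order within a group cannot show whether they go together. Endothelial markers summed to 1241, 2356 and 2620 in CtrlCre replicates 1, 2 and 3 and to 2308 to 2639 in Cpt1bcKO libraries. All 8 had a log2 fold change above 0, as did 49.8% of all tested genes, and their median was 0.34. Of these, 1 marker, *Tie1*, had an unadjusted *P* value below 0.05 (log2 fold change 0.61, adjusted *P* = 0.266 in limma). Of 5 tested myeloid markers 0 were called in limma at either threshold, with sums of 96 to 144 and 114 to 134. Mural markers summed to 3444 to 4824 and 2841 to 3171, most of which was *Abcc9*, a channel subunit gene also expressed in CMs, which fell by 0.80 on the log2 scale (adjusted *P* = 0.0123 in limma). Of the erythroid list 2 of 6 genes were present, with sums of 3 to 20 and 1 to 18, and of the lymphoid list 0 of 8 were present.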

How the data were processed

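RNA-seq of adult CMs was examined in 3 CtrlCre and 3 Cpt1bcKO libraries, grouped by the sample titles. Per the labels and methods, the authors used stranded total RNA libraries, Trimmomatic 0.36, STAR 2.5.4b on GRCm38.p5 and featureCounts 1.6.0, and left out reads on several genes or regions. The deposited values are scores and not counts, because the authors divided the gene counts of each library by a size factor and rounded them. The strand setting and annotation release are not given in the sources used here. Columns with the authors' fold changes, *P* values and means were not used.

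Values were transformed to log2(value + 1), filtered for at least 10 in at least 3 libraries and fitted with limma 3.58.1 in R 4.3.3 (lmFit, eBayes with trend, group as the only term, Benjamini–Hochberg over 11364 genes). The procedure was tried on simulated data, in which changes were put only in genes with higher means than *Mcm3*, *Mcm5*, *Mcm6* and *Lig1*. It therefore does not show how changes at the level of these 4 members are called. No count model was used, since raw counts were not at hand. Exon lengths came from GENCODE vM21, in which 9 of 10 members have the same span as in the table, *Lig1* being the exception. Promoters came from RefSeq. Python 3.11.15, pandas 2.3.3 and matplotlib 3.10.9 were used. Estimated depth was 14853600 to 24514900 reads on genes in 4 libraries. Intervals and counting errors cover the libraries at hand only.

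Members and lists were chosen with earlier results of these data known. Named genes are the 10 members, *Cpt1b*, genes of the role lists with an unadjusted *P* value below 0.05, the highest gene of each list, partners of the members in their complexes, and markers of other cells with an adjusted *P* value below 0.05. *Cdc6*, *Cdt1*, *Tcf21*, *Tie1*, *Top2a*, the CM markers and the genes overlapping *Mcm7* were named after their values were seen. The share of *Mcm2* in MCM2-7 and its ratio to the other subunits were added at that stage too. Alternatives were pseudocounts of 0.5 and 5, no filter or at least 10 in every library, other scaling, no trend, a replicate block and leaving out each library.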

Additional observations from a re-analysis of the deposited data

How the results depend on the processing

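Low read numbers and the spread among 3 libraries a group both limit these results, and 1 library can decide a call. Under the alternatives that kept all 6 libraries the log2 fold changes of all members stayed above 0, and *Mcm2* lay between 1.19 and 1.39. With 1 prior variance for all genes, 41 genes and 0 members had an adjusted *P* value below 0.05 in limma (178 genes and 1 member otherwise), 2 members had an unadjusted one, and *Cpt1b* was at −2.27 (adjusted *P* = 0.0563). With at least 10 in every library, 8 members were tested and 1 had an unadjusted *P* value below 0.05, *Mcm5* and *Lig1* having dropped out. Scaling to the total without mitochondrial and rRNA genes moved the median of all genes to 0.11 and the unadjusted calls to 1258 higher and 488 lower, from 757 and 821. The median of the members was then 0.34, which is 0.23 above that of all genes, and *Mcm2* was at 1.39. Same-numbered libraries of the 2 groups correlated in their deviations from the group means across genes with *r* of 0.376, 0.255 and 0.0684. CtrlCre replicate 3 correlated better with Cpt1bcKO replicate 2 (0.119). Deviations from a mean of 3 libraries are not independent, so these values do not settle whether the numbers are pairs. The paper names littermate controls but no pairs of libraries, and the main fit used none. With the replicate block, 603 genes, 1 member and 2 of the other replication genes had an adjusted *P* value below 0.05, and that of *Mcm2* was 0.0133. With 1 library left out, 972 to 2208 genes had an unadjusted and 40 to 305 an adjusted *P* value below 0.05. Among the members 1 to 2 were called by unadjusted and 0 to 1 by adjusted *P* value, and among the other replication genes 4 to 13 and 0 to 2. The log2 fold changes then ranged from −0.042 to 0.68 in *Mcm3*, −0.28 to 0.32 in *Mcm4*, −0.19 to 0.34 in *Mcm7*, −0.12 to 0.28 in *Pcna*, −0.061 to 0.26 in *Rpa1* and −0.089 to 0.29 in *Rrm1*. The cause of these changes was not tested.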
